A study of Mus musculus with 8 samples.

Results

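The mRNAs of 10 enzymes on the path from glucose to lactate were followed in 8 tibialis anterior (TA) muscles of mice that received siRNAs by electroporation. The members are the genes *Hk2*, *Gpi1*, *Pfkm*, *Aldoa*, *Gapdh*, *Pgk1*, *Pgam2*, *Eno3*, *Pkm* and *Ldha*, picked by name from a table of 41709 gene rows, of which 11530 were tested. All 10 have a row and all 10 passed the filter on low values, which asked for 1 TPM in at least 4 muscles. The row of *Aldoa* is split: the row used here, with the suffix 1, held nearly all of the signal, and the row with the suffix 2 ranged from 0.320 to 1.36 TPM and fell below the filter. With *Uba1* siRNAs, none of the 10 mRNAs passed an adjusted p of 0.05 in an unpaired test against the control group, beside 0.026% of all genes tested. Each of the 10 had overlapping ranges in the 2 groups, as did all but 11.6% of the genes tested.

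The muscles came from male C57BL/6J mice at 3 months of age and were collected 7 days after electroporation. One TA muscle of each of 4 mice was given control non-targeting (NT) siRNAs and the contralateral TA muscle was given *Uba1* siRNAs, each as a pool (SMARTpool) of siRNAs, so all 8 muscles were electroporated and none was left untreated. No genetic alteration is named for either group. *Uba1* encodes the ubiquitin-activating enzyme that starts most ubiquitination, and the comparison asks how muscle mRNAs differ when it is knocked down. All NT muscles are labelled as right and all *Uba1* muscles as left, so leg and siRNA cannot be told apart. The treatment tags name UBA2, UBA3 and UBA4 for replicates 2 to 4 of the *Uba1* group, whereas titles and descriptions name UBA1 for all 4. Values are TPM (transcript abundances scaled for gene length and to a sum of 1000000 in each muscle), and the number of reads behind them is unknown. Muscles with the same replicate number come from the same mouse and are called a pair.

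Glycolysis is the cytosolic pathway that turns glucose into pyruvate with a net gain of ATP, and fast muscle fibers rely on it during short bursts of work. Its first steps spend ATP on phosphorylating sugars, and its later steps return ATP and NADH. Lactate dehydrogenase regenerates NAD+ from NADH when pyruvate is made faster than mitochondria use it. Many of these steps have isoforms of which one is abundant in muscle, and the glycolytic genes are textbook targets of hypoxia-inducible factor, whose binding motif has the core ACGTG.

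The promoter windows of 3 genes are printed, because *Hk2* and *Ldha* are the members at the 2 ends of the fold change order and *Ldhb* encodes the other main subunit of the *Ldha* step. Each window has 300 bases around a start site from RefSeq (GRCm38.p6), and each was found exactly once in GRCm39, from which its position is given. Capitals mark every ACGTG on either strand, so a match on the opposite strand reads CACGT, and CACGTG holds a match on both strands. The window of *Hk2* lies at chr6:82751386-82751685 (minus strand), the first of 2 windows of *Ldha* at chr7:46494978-46495277 (plus strand) and that of *Ldhb* at chr6:142453634-142453933 (minus strand).
Hk2: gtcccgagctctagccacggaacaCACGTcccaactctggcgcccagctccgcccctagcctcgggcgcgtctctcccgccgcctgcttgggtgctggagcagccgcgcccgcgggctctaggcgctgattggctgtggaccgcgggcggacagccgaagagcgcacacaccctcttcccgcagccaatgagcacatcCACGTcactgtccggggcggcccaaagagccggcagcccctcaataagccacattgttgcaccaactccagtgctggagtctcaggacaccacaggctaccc
Ldha: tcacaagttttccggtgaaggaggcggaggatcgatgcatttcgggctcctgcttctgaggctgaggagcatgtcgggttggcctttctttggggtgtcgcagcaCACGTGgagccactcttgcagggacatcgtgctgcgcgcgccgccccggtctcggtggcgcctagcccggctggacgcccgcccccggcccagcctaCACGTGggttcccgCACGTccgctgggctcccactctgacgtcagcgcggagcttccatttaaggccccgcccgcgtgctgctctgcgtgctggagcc
Ldhb: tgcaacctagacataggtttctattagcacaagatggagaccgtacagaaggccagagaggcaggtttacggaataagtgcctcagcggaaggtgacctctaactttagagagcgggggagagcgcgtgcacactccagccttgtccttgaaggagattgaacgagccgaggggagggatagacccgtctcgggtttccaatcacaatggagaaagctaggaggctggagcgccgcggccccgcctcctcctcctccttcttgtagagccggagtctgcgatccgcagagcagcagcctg
The *Hk2* window held 2 matches, the *Ldha* window 5 and the *Ldhb* window 0. The other window of *Ldha*, at chr7:46496256-46496555, also held 0. Over the 10 members, 17 windows were matched, and 9 of them, from 7 members, held ACGTG on either strand, beside 19.6% of the 32851 windows of all genes. Windows of a gene can overlap, so they are not separate: the 2 windows of *Aldoa* with a match hold the same one. The share over all genes is per window, and none per gene stands beside the count of members. The E-box CAGCTG, a motif read by muscle regulatory factors and not overlapping ACGTG, stood in 5 of the 17 windows, from 5 members, beside 16.3% of all windows. A match describes these letters alone.

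The knockdown and the tissue were checked first. *Uba1* (chromosome X of GRCm39, 20524493 to 20549418, plus strand) was at 60.6, 59.0, 63.55 and 59.1 TPM in NT replicates 1 to 4 and at 18.1, 6.77, 15.8 and 23.1 TPM in *Uba1* replicates 1 to 4. The groups did not overlap, and the log2FC was -1.98 (SE 0.290), with an adjusted p of 0.0527 from limma with Benjamini-Hochberg adjustment. With the mouse as a block the adjusted p from limma was 0.0278, past the threshold of 0.05. A two-sided exact permutation test gave p = 0.0286, and no smaller p can be had from groups of this size. Markers of muscle fibers (*Acta1*, *Ckm*, *Mb*, *Actn3*, *Ttn*, *Des* and *Pvalb*) were all detected, with a summed level of 77840 to 82640 TPM with NT siRNAs and 60490 to 86080 TPM with *Uba1* siRNAs, the lowest in replicate 2 and then in replicate 4 (67100 TPM) of the *Uba1* group. *Acta1*, *Ckm* and *Pvalb* make up most of this sum. *Mb*, the oxygen carrier myoglobin, went the other way and was highest of the 8 muscles in *Uba1* replicate 2 (4918 TPM), and *Ttn* there (183 TPM) and in *Uba1* replicate 4 (190.2 TPM) was above 3 of the 4 NT muscles. None of these 7 markers passed an unadjusted p of 0.05. Transcripts of the mitochondrial genome took 42.1% to 45.7% of all TPM in NT muscles and 39.9% to 50.3% in *Uba1* muscles, the highest in *Uba1* replicate 2. In whole muscle, fewer cells of a type and less RNA per cell cannot be told apart.

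The 10 mRNAs spanned about 2 orders of magnitude in the control legs. *Aldoa*, the aldolase of muscle, was the highest at 10090 ± 358 TPM, followed by *Eno3*, the muscle enolase, at 6472 ± 155 TPM and *Pgam2*, the muscle phosphoglycerate mutase, at 4215 ± 166 TPM (SD, n = 4 muscles). Outside the mitochondrial genome, *Aldoa* ranked 10 and *Eno3* 12 among all genes by mean TPM with NT siRNAs. *Pfkm* (2371 TPM), *Gapdh* (1864 TPM), *Pkm* (1646 TPM) and *Ldha* (1630 TPM) formed the middle of the order. *Pgk1* (977 TPM), *Gpi1* (311 TPM) and *Hk2* (110 TPM) stood at its low end. The ranges of neighbors in this order overlapped for *Gapdh* and *Pkm* and for *Pkm* and *Ldha*. *Gapdh* was above *Pkm* within each of the 4 NT muscles, whereas *Pkm* was above *Ldha* in 2 of 4. The other neighbors did not overlap. With *Uba1* siRNAs the order of the means was the same for all 10, and *Pkm* was above *Ldha* in 4 of 4 muscles.

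**Figure D1:**
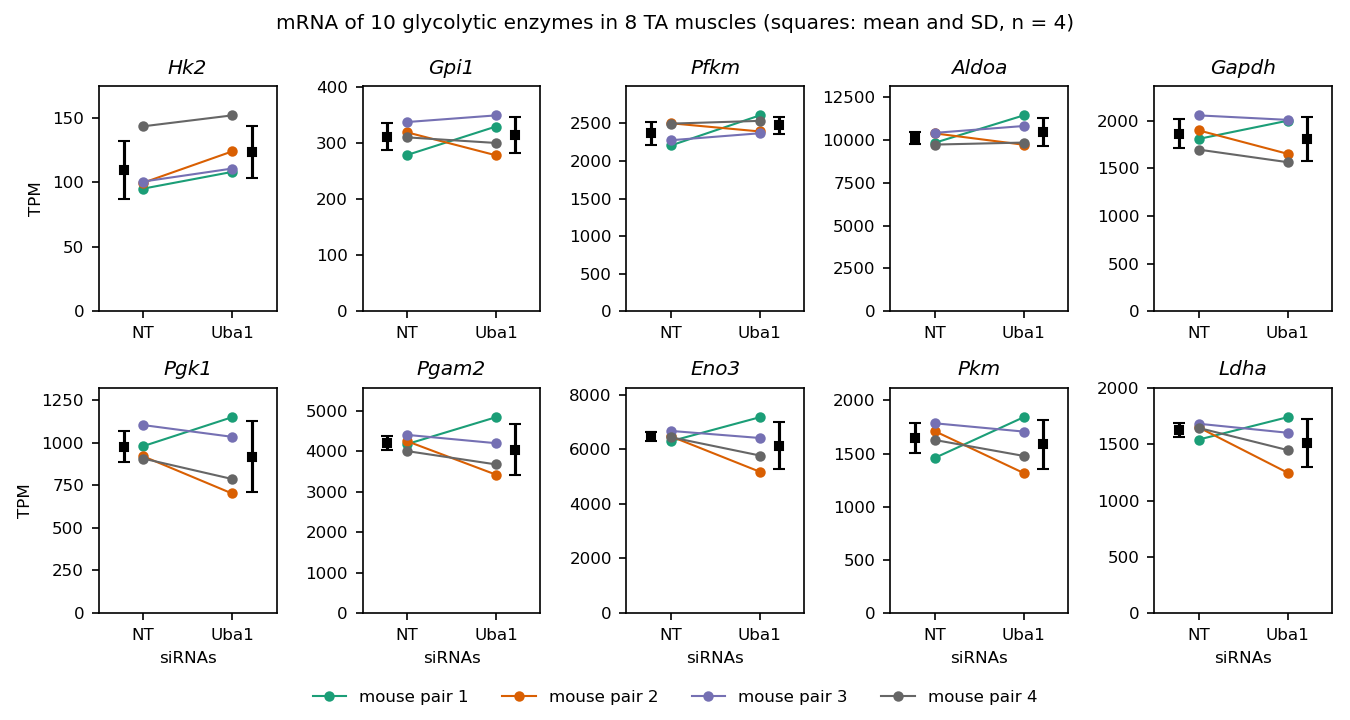
TPM (vertical axes, starting at 0) of the 10 enzymes in the legs with NT and with *Uba1* siRNAs, with a line joining the 2 legs of each mouse and black squares for the mean and SD of 4 muscles. The groups overlap in every panel, and *Hk2* is the gene whose 4 lines all go up.

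The first 4 enzymes take glucose to triose phosphates and include the steps that spend ATP. *Hk2* encodes hexokinase 2, which phosphorylates glucose on entry and is the insulin-responsive hexokinase of muscle. It was at 95.2, 99.8, 100.7 and 143.6 TPM in NT replicates 1 to 4 and at 108.2, 124.1, 110.8 and 152.1 TPM in *Uba1* replicates 1 to 4. Each *Uba1* leg was above the NT leg of its mouse, but NT replicate 4 was above 3 of the 4 *Uba1* muscles. The log2FC of *Hk2* was 0.18 (SE 0.150, 95% interval -0.16 to 0.52, adjusted p = 0.519 from limma without a block), the largest of the 10 in this fit. With the mouse as a block, the 95% interval was 0.0205 to 0.336, the unadjusted p 0.0318 and the adjusted p 0.167 (limma). In that fit, 22.4% of all genes tested were higher at an unadjusted p of 0.05. With median-ratio scaling the log2FC was 0.06, and the blocked unadjusted p was 0.423. NT replicate 4 and *Uba1* replicate 4, the 2 legs of 1 mouse, were each the highest of their group, so leaving out either leg moves the fold. Without NT replicate 4 the log2FC was 0.31 (adjusted p = 0.223 from limma) and passed an unadjusted p of 0.05, as did 1824 higher genes of 11485 in that fit, and without *Uba1* replicate 4 it was 0.08 (adjusted p = 0.751). Over all alternatives that were tried, its adjusted p ranged from 0.167 to 0.948.

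*Gpi1*, which turns glucose-6-phosphate into fructose-6-phosphate, ranged from 279 to 337 TPM with NT siRNAs and from 278 to 349 TPM with *Uba1* siRNAs. *Pfkm*, the muscle phosphofructokinase that commits sugar to glycolysis, ranged from 2207 to 2503 TPM and from 2370 to 2608 TPM. *Aldoa*, which splits fructose-1,6-bisphosphate, ranged from 9726 to 10410 TPM and from 9717 to 11430 TPM. Their groups lay almost on top of each other, with ratios of the means of 1.01, 1.04 and 1.04. The log2FC was 0.01 for *Gpi1* (SE 0.0897, adjusted p = 0.949), 0.06 for *Pfkm* (SE 0.0724, adjusted p = 0.634) and 0.05 for *Aldoa* (SE 0.0805, adjusted p = 0.745, all from limma). The 95% intervals allowed a fold of 0.876 to 1.16 for *Gpi1*, 0.934 to 1.17 for *Pfkm* and 0.912 to 1.17 for *Aldoa*.

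The next 5 members carry triose phosphates to pyruvate and return NADH and ATP. *Gapdh*, which makes NADH and is a common reference gene, averaged 1864 ± 151 TPM in NT muscles and 1806 ± 231 TPM in *Uba1* muscles (SD, n = 4 each). *Pgk1*, which makes ATP, was at 979, 920, 1103 and 907 TPM in NT replicates 1 to 4 and at 1149, 702, 1034 and 787 TPM in *Uba1* replicates 1 to 4. The *Uba1* group held both the highest and the lowest value of *Pgk1*, in replicates 1 and 2. *Pgam2*, which moves the phosphate of 3-phosphoglycerate, was at 4215 ± 166 TPM and 4040 ± 629 TPM (SD, n = 4 each). *Eno3*, which makes phosphoenolpyruvate, was at 6297, 6475, 6674 and 6443 TPM in NT replicates 1 to 4 and at 7176, 5178, 6415 and 5773 TPM in *Uba1* replicates 1 to 4. The 4 NT values of *Eno3* lay within the range of the *Uba1* values. *Pkm*, the pyruvate kinase of muscle, was at 1646 ± 140 TPM and 1586 ± 234 TPM (SD, n = 4 each), and a value per gene cannot separate its M1 and M2 splice forms. The log2FC of these 5 genes was between -0.11 (*Pgk1*, SE 0.153) and -0.05 (*Gapdh*, SE 0.104), and the adjusted p from limma was between 0.644 (*Eno3*) and 0.791 (*Gapdh*). The interval of *Pgk1* was the widest of the 5 and allowed a fold of 0.728 to 1.17. Each of the 5 was lower in the *Uba1* leg in 3 of 4 pairs and higher in pair 1.

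*Ldha*, the lactate dehydrogenase subunit that is abundant in fast muscle, was at 1542, 1651, 1683 and 1646 TPM in NT replicates 1 to 4 and at 1741, 1248, 1603 and 1449 TPM in *Uba1* replicates 1 to 4. *Uba1* replicate 1 was the highest of all 8 muscles, and the other *Uba1* muscles were lower than their NT legs. The log2FC of -0.12 (SE 0.102, 95% interval -0.35 to 0.11, adjusted p = 0.521 from limma) was the lowest of the 10 in this fit. With quantile normalization *Pgk1* (-0.132) was below *Ldha* (-0.0677). *Pgk1* was also the lower without NT replicate 2 or 4 or *Uba1* replicate 1 or 3. In the fit of all 8 muscles, *Ldha* and *Hk2* bound the members: 8 of the 10 log2FC were smaller than their own standard error. The widest intervals of the 10 reached down to -0.46 (*Pgk1*) and up to 0.52 (*Hk2*), and the narrowest, that of *Pfkm*, ran from -0.10 to 0.23.

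**Figure D2:**
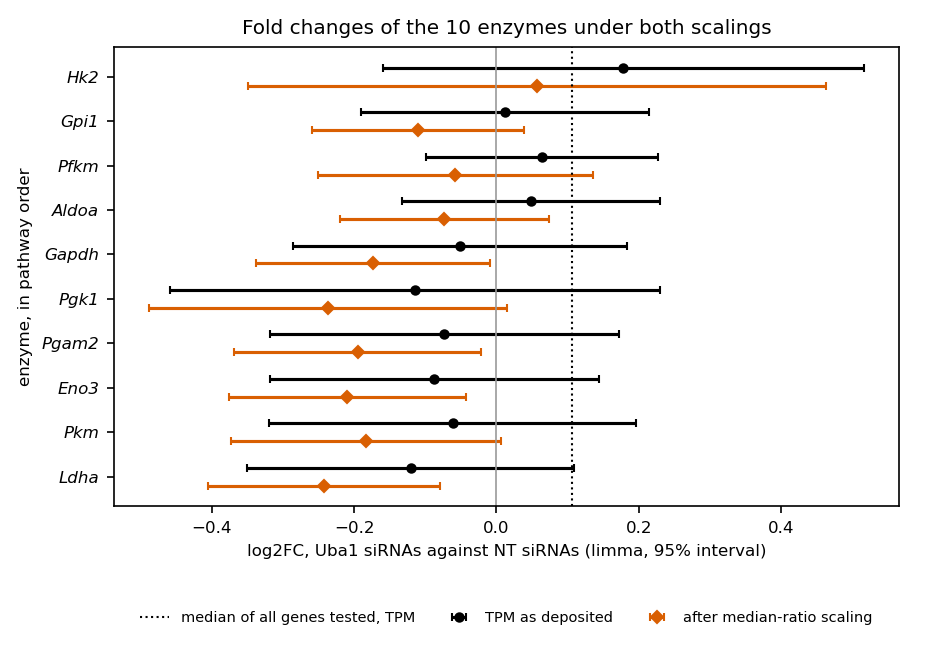
log2FC of the 10 enzymes between *Uba1* and NT siRNAs (horizontal axis) with 95% intervals from limma on 4 against 4 muscles, from the TPM as deposited (circles) and after median-ratio scaling (diamonds). The dotted line is the median of all genes tested (0.11). Both fits are without a block. Every interval shown for the deposited TPM crosses 0, whereas 4 intervals lie below 0 after the scaling. With the mouse as a block, the interval of *Hk2* from the deposited TPM did not cross 0 (0.0205 to 0.336).

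Counted over the list, 0 of 10 members passed an adjusted p of 0.05 in limma, beside 0.026% of the 11530 genes tested (3 genes, all lower with *Uba1* siRNAs). With the mouse as a block 22 genes were higher and 35 lower, and without *Uba1* replicate 4, 4 were higher and 35 lower, and 0 members passed in either. At an unadjusted p under 0.05 the count was again 0 of 10 in limma, beside 18.0% of all genes (16.0% higher and 1.98% lower), and 0 of 10 in the Kruskal-Wallis test, beside 19.2% of all genes. The ranges of the groups did not overlap for 0 of 10 members and for 11.6% of all genes. *Hk2* was the 1 member that was higher in 4 of 4 pairs, beside 32.2% of all genes, and 0 members were lower in 4 of 4 pairs, beside 2.98%. The log2FC was above 0 for 4 of 10 members and for 81.8% of all genes, and its median was -0.06 over the members and 0.11 over all genes. Among the 611 other nuclear genes at a mean of 100 TPM or more, a group nearer to the members in level and chosen after the data were seen, 66.9% had a log2FC above 0 and the median was 0.03. Without *Uba1* replicate 2, 7 of 10 members had a log2FC above 0 and their median was 0.01, beside 87.8% and 0.14 for all genes in that fit, since *Pgk1*, *Pgam2* and *Pkm* changed sign to 0.0054, 0.0018 and 0.0242.

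The place of the members relative to zero depended on the scaling. Median-ratio scaling, which sets the typical gene equal between muscles, brought the median of all genes from 0.11 to 0.00 and the split of all genes at an unadjusted p of 0.05 from 1844 higher and 228 lower to 511 higher and 712 lower. On that scale 9 of 10 members were below 0, with *Hk2* at 0.06 as the exception, and their median was -0.18, beside -0.09 for the 611 other nuclear genes at 100 TPM or more. *Gpi1*, *Pfkm* and *Aldoa* turned to -0.11, -0.06 and -0.07. *Ldha* (-0.24), *Eno3* (-0.21), *Pgam2* (-0.19) and *Gapdh* (-0.17) were lower at an unadjusted p of 0.05 in limma, 4 of 10 members beside 6.18% of all genes. None of these passed the adjustment, with adjusted p from 0.27 (*Ldha*) to 0.444 (*Gapdh*). With the block and this scaling together, 4 of 10 members were lower at an unadjusted p of 0.05, beside 8.76% of all genes, and with quantile normalization 1 of 10 was higher (*Aldoa*), beside 4.45%. The median of the members was -0.06 against 0.11 for all genes in the deposited TPM and -0.18 against 0.00 after median-ratio scaling. That scaling divides all genes of a muscle by a single factor. It therefore moves both medians about alike and is no separate check of the distance between them. With quantile normalization the 2 medians were close, at 5e-04 for the members and 0.01 for all genes, with 5 of 10 members and 54.6% of all genes above 0. With TPM rescaled without the mitochondrial genome, which also applies a single factor per muscle, they were -0.04 and 0.13.

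The difference between the legs varied from mouse to mouse. In pair 1 all 10 members were higher in the *Uba1* leg, by a median of 0.22 on the log2 scale, from 0.14 (*Gapdh*) to 0.34 (*Pkm*). In pair 2, 9 of 10 were lower, with a median of -0.26 and *Hk2*, at 0.31, as the exception. Pairs 1 and 2 thus lay on opposite sides of zero for 9 enzymes. In pair 3, 6 of 10 were lower, with a median of -0.04, and in pair 4, 7 of 10 were lower, with a median of -0.12. Over all genes tested, the median of the same differences was 0.19, 0.03, 0.15 and 0.04 in pairs 1 to 4, and 83.3%, 56.1%, 81.8% and 61.8% of all genes were higher in the *Uba1* leg. The share of TPM from the mitochondrial genome differed between the *Uba1* and the NT leg by -5.45, 6.47, -2.23 and 3.37 percentage points in pairs 1 to 4. With TPM rescaled without the mitochondrial genome, the medians of the members were 0.08, -0.08, -0.10 and -0.03, and 10, 3, 2 and 4 members were higher. The pairs kept the sign of their medians, and the distance between pairs 1 and 2 was smaller than with the mitochondrial genome.

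**Figure D3:**
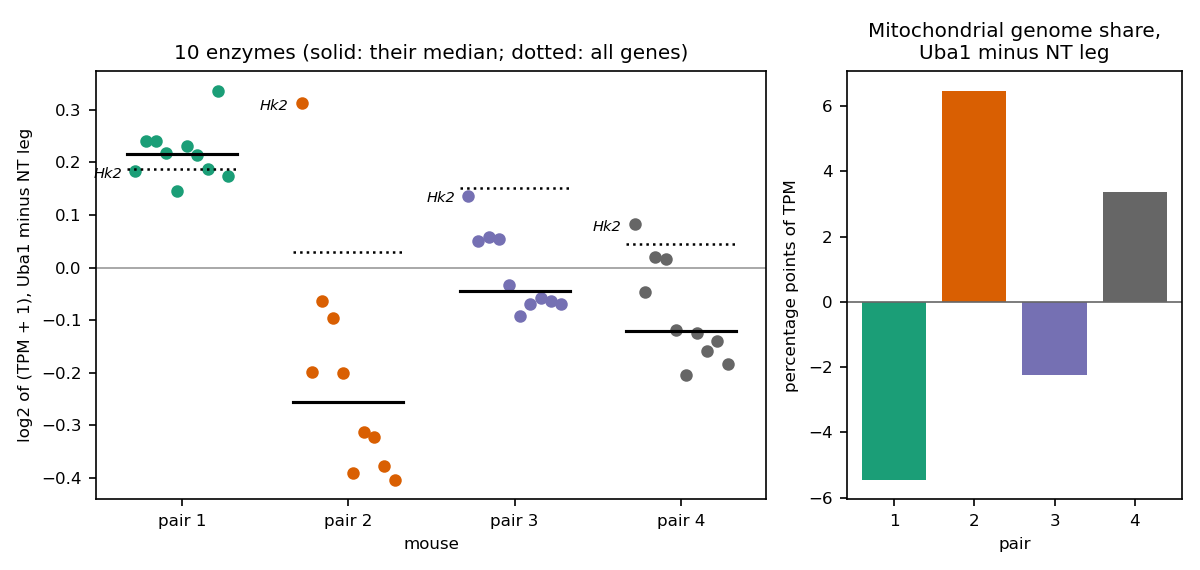
Left, the difference between the *Uba1* and the NT leg of each mouse in log2(TPM + 1) for each of the 10 enzymes (points, in pathway order), with their median (solid) and that of all genes tested (dotted). Right, the difference in the percent of TPM from the mitochondrial genome; pair 1 has all 10 enzymes above 0 and pair 2 has 9 below 0.

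Single muscles stood at the ends for most members. *Uba1* replicate 1 held the highest value for 7 of 10 members and *Uba1* replicate 2 the lowest for 7 of 10. Together the 10 mRNAs made up 2.97% ± 0.101 of all TPM in NT muscles and 2.94% ± 0.320 in *Uba1* muscles (SD, n = 4 each). In *Uba1* replicates 1 to 4 this share was 3.32%, 2.60%, 3.06% and 2.76%, and in NT replicates 1 to 4 it was 2.87%, 3.02%, 3.08% and 2.90%. As a share of the TPM outside the mitochondrial genome, the members took 5.27% ± 0.120 in NT and 5.26% ± 0.207 in *Uba1* muscles (SD, n = 4 each). The coefficient of variation between muscles was 2.40% with NT siRNAs and 14.0% with *Uba1* siRNAs for *Eno3*, 3.94% and 15.6% for *Pgam2*, 3.74% and 14.0% for *Ldha* and 9.15% and 22.8% for *Pgk1*. *Hk2* and *Pfkm* went the other way, with 20.6% and 16.2% for *Hk2* and 6.41% and 4.59% for *Pfkm*. Outside the members, the coefficient was 5.2% with NT and 19.6% with *Uba1* siRNAs for *Acta1*, 2.67% and 11.5% for *Ckm* and 4.68% and 17.3% for *Tpi1*. It went the other way for *Ttn* (18.1% and 9.7%) and *Slc2a4* (9.49% and 6.33%). These spreads are given as a description and were not tested. The summed muscle fiber markers were lowest in *Uba1* replicates 2 and 4, the muscles with the lowest shares of the 10 enzymes in all TPM. Outside the mitochondrial genome the lowest shares were those of *Uba1* replicate 3 (5.09%) and NT replicate 4 (5.10%), with *Uba1* replicate 2 at 5.24%. The part of fiber content in these values was not tested.

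The muscle isoform dominated the steps described here in both groups. *Pfkm* made up 99.8% of the summed TPM of *Pfkm*, *Pfkl* and *Pfkp* in both groups. *Pgam2* made up 99.5% to 99.6% beside *Pgam1*, and *Eno3* 99.2% and 99.3% (mean of the NT and of the *Uba1* muscles) beside *Eno1*, *Eno2* and *Eno4*. *Pklr*, the liver and red cell pyruvate kinase, was listed at 0 in all 8 muscles, so no test of the *Pkm* share has meaning. A share within a step does not depend on how a muscle was scaled.

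The lactate dehydrogenase step had the largest difference in share among these steps. *Ldha* made up 93.8%, 96.2%, 96.5% and 95.7% of the summed *Ldha*, *Ldhb* and *Ldhc* in NT replicates 1 to 4 and 95.3%, 89.0%, 94.97% and 92.0% in *Uba1* replicates 1 to 4. The share was lower in the *Uba1* leg in 3 of 4 pairs, the groups overlapped, and the difference of the means was -2.75 percentage points. Without *Uba1* replicate 2 the difference was -1.48. An exact permutation test gave p = 0.143 (two-sided), or 0.9 after Benjamini-Hochberg adjustment over the 7 steps tested and 0.771 over the 6 whose share varied, and exact sign flips within mice gave p = 0.25, a test that cannot pass 0.05 with 4 pairs. *Ldhb*, the subunit that is abundant in heart and oxidative fibers, was at 101.8, 64.8, 61.8 and 73.5 TPM in NT replicates 1 to 4 and at 86.5, 154.8, 84.9 and 126.1 TPM in *Uba1* replicates 1 to 4. *Uba1* replicates 2 and 4 were above all NT muscles, and *Uba1* replicates 1 and 3 lay below NT replicate 1. The log2FC of *Ldhb* was 0.56 (SE 0.219, adjusted p = 0.239 from limma), past an unadjusted p of 0.05 but not past the adjusted one. Its exact permutation test gave p = 0.114 and exact sign flips within mice p = 0.25 (both two-sided). With median-ratio scaling it was 0.44 and passed neither. The level of *Myh2*, the myosin of oxidative 2a fibers, was 79.0 to 169 TPM with NT siRNAs and 99.7 to 328.5 TPM with *Uba1* siRNAs, with *Uba1* replicates 4 (328.5 TPM) and 2 (201 TPM) the highest of the 8 muscles. *Myh4*, the myosin of 2b fibers, was lowest of the 8 in *Uba1* replicate 2 (10560 TPM). In *Uba1* replicate 4 it was at 17830 TPM, above 3 of the 4 NT muscles. *Myh1*, the myosin of 2x fibers, was highest of the 8 in *Uba1* replicate 2 (6010 TPM). In *Uba1* replicate 4 it was at 3535 TPM, beside 2504 to 4620 TPM with NT siRNAs. The summed markers of slow fibers (*Myh7*, *Tnnt1*, *Tnni1*, *Myl2* and *Atp2a2*) were lowest of the 8 in these same 2 muscles, at 32.1 TPM in *Uba1* replicate 2 and 35.7 TPM in replicate 4, beside 37.6 to 80.4 TPM with NT siRNAs. *Atp2a2*, *Tnnt1* and *Tnni1* carry this sum, whereas *Myh7*, the slow myosin, was highest of the 8 muscles in *Uba1* replicate 2 (2.88 TPM) and higher in 4 of 4 pairs, and *Myl2* there (2.66 TPM) was above 3 of the 4 NT muscles. The summed adipocyte markers (*Adipoq*, *Plin1* and *Cidec*) were at 1.32 and 2.39 TPM in *Uba1* replicates 2 and 4, beside 7.51 to 14.3 TPM with NT siRNAs. The part of fiber types and of these cells in the *Ldhb* values was not tested.

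**Figure D4:**
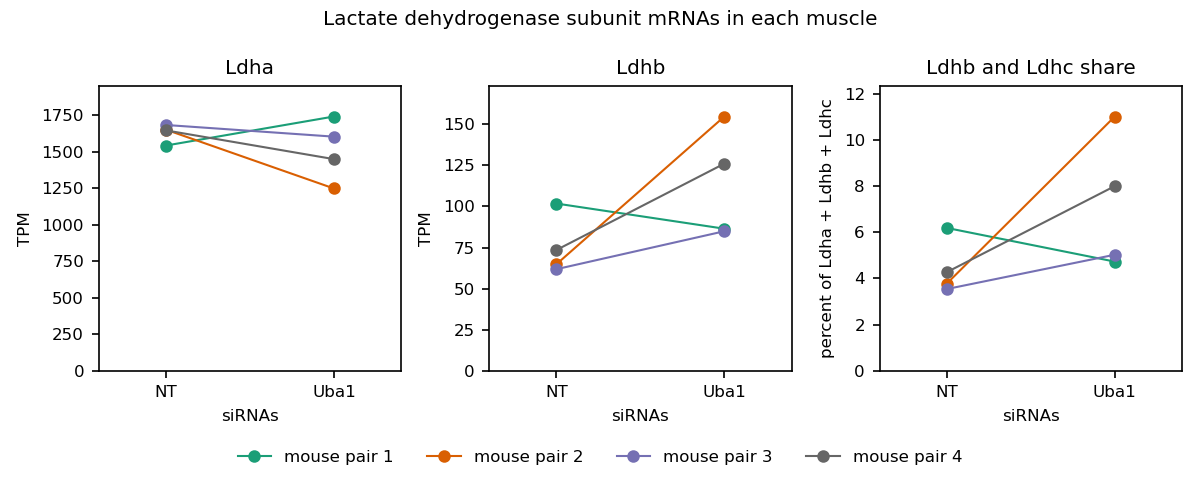
TPM of *Ldha* and *Ldhb* and the percent of *Ldhb* and *Ldhc* in the summed TPM of the 3 subunit genes, per muscle, with a line joining the 2 legs of each mouse. The share is highest in *Uba1* replicates 2 and 4, and pair 1 runs opposite to the other pairs.

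Around the members, 56 further genes of the pathway were read: isoforms, regulators, transporters, the pyruvate dehydrogenase complex and transcription factors. All 56 have a row, and 45 passed the filter. In limma, 0 of the 45 passed an adjusted p of 0.05. At an unadjusted p of 0.05, 7 of 45 were higher with *Uba1* siRNAs and 0 lower, a share near the 16.0% of all genes that were higher. These 7 were *Ldhb*, the pyruvate dehydrogenase phosphatase *Pdp2* (1.26 ± 0.216 to 1.97 ± 0.215 TPM, log2FC 0.40), the pyruvate dehydrogenase kinase *Pdk1* (15.7 ± 0.419 to 18.4 ± 0.867 TPM, 0.21), the glucose transporter *Slc2a3* (0.34), the lactate transporter *Slc16a1* (0.23) and the phosphofructokinase-2 isoforms *Pfkfb1* (0.34) and *Pfkfb2* (0.24; SD, n = 4 each). Their adjusted p in limma was between 0.144 (*Pdp2*) and 0.241 (*Pfkfb2*). With median-ratio scaling the split turned to 2 higher (*Pdp2* and *Slc2a3*) and 5 lower, beside 4.43% of all genes higher and 6.18% lower. These 5 were the glucose transporter *Slc2a1* (-0.32), the bisphosphoglycerate mutase *Bpgm* (-0.32), *Tpi1* (-0.21), the pyruvate dehydrogenase subunit *Dlat* (-0.19) and the glycerol-3-phosphate dehydrogenase *Gpd1* (-0.19), with adjusted p in limma from 0.242 (*Dlat*) to 0.418 (*Tpi1*). With the mouse as a block, 11 of 45 were higher and 0 lower, near the 22.4% of all genes that were higher in that fit, and 0 passed the adjustment.

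Genes next to the members did not pass the adjusted p. *Tpi1*, the triose phosphate isomerase that links aldolase to *Gapdh*, averaged 1650 ± 77.2 TPM in NT and 1565 ± 270 TPM in *Uba1* muscles (SD, n = 4 each), with a log2FC of -0.09 (SE 0.116, adjusted p = 0.67 from limma). *Slc2a4*, the insulin-responsive glucose transporter, was at 282 ± 26.7 and 310.3 ± 19.6 TPM (SD, n = 4 each; log2FC 0.14, adjusted p = 0.378 from limma). *Hif1a*, a subunit of hypoxia-inducible factor, was at 7.94 ± 1.30 and 9.44 ± 1.08 TPM (SD, n = 4 each; log2FC 0.23, adjusted p = 0.322 from limma). *Slc2a4* and *Hif1a* were each higher in 4 of 4 pairs, beside 32.2% of all genes. With the mouse as a block *Hif1a* passed an unadjusted p of 0.05 (adjusted p = 0.168 from limma), beside 22.4% of all genes higher in that fit. With median-ratio scaling its log2FC was 0.12, and it passed no threshold with or without the block. Copies of *Aldoa* that are named as such, *Aldoart1* and *Aldoart2*, summed to 2.21 to 4.52 TPM per muscle. *Aldoa*, *Gapdh* and other members are known to have near-identical copies in the mouse genome, and how the authors' counting shared reads among them is not stated, so their levels are uncertain to that degree.

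Over the 8 muscles, the members differed in how closely they followed one another. The mean absolute distance of a member's deviations (log2 value minus the gene's own mean) from those of the other 9 was 0.04 for *Aldoa*, 0.05 for *Eno3*, 0.05 for *Gpi1*, 0.06 for *Ldha* and 0.06 for *Pkm*. It was 0.07 for *Pgam2*, 0.08 for *Gapdh*, 0.10 for *Pfkm* and 0.15 for *Pgk1*, and it was the largest for *Hk2* at 0.29. Among 4718 other genes at a mean of 10 TPM or more, the 5 with the smallest distance from the mean deviation of the members were *Cdk2ap1*, *Cdc34*, *Morf4l2*, *Tmem161a* and *Pfdn1*, at 0.02 each, beside a median of 0.11. All of these distances share the same 8 muscles and their scaling, and they are given as a description.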

How the data were processed

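RNA-seq of 8 TA muscles, 4 with NT siRNAs and 4 with *Uba1* siRNAs, was used. The authors trimmed paired-end reads, aligned them to GRCm39 in CLC Genomics Workbench and deposited TPM for each gene. The annotation, any filter on low gene values and the counting of reads that match several genes are not given in the sources used here. TPM keep no read totals, so depth is unknown and no counting interval is given. Each column sums to 1000000.

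Genes that reached 1 TPM in 4 or more of the 8 muscles were tested with limma 3.58.1 (R 4.3.3, eBayes with trend, no block) on log2(TPM + 1), with Benjamini-Hochberg adjustment over all 11530 genes, since the study's rank test, run as an alternative, cannot use the spread of other genes. The added 1 shrinks fold changes of genes with low TPM on this log2(TPM + 1) scale. Single values were compared by exact permutation tests (scipy 1.17.1), two-sided. Groups follow the sample descriptions. Same-numbered muscles are the legs of 1 mouse per the labels and the methods of the study, and their deviations from the group means correlated at 0.00, 0.20, 0.58 and 0.54 in pairs 1 to 4. In simulated data for this comparison with 11530 genes, the test called 91% of 200 genes given a log2FC of 1, with 5.7% false calls, and 0 genes when none was altered. Each simulated gene varied on its own, with no pairs and no difference shared by the genes of a muscle. How the test behaves with such shared differences was not examined, and a log2FC of 1 is larger than that of any member.

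The members, the list of 56 further genes, the marker genes and the rules for named genes were chosen with earlier results of these data known. The named genes are the 10 members, *Uba1*, further pathway genes past p 0.05, the isoforms of the steps described and the 5 genes closest to the members. *Slc2a4* and *Hif1a* were added after their values were seen, as neighbors of the members. The row of *Aldoa* was chosen after the table was seen. Numbered suffixes are carried by 65 symbols, *Aldoa* among them. Marker lists of fiber types and of endothelial, immune, fibro-adipogenic, adipocyte, blood and satellite cells were summed as well, and 2 of their genes passed an unadjusted p of 0.05 (*Lum* higher, *Cidec* lower) and 0 an adjusted p in limma. The isoform shares of 2 of the 7 steps tested are not reported here, and the adjustment without the constant *Pkm* share was chosen after seeing the data. Gene positions come from GENCODE M39 and promoter windows from RefSeq. The alternatives were another pseudocount (0.1), no filter, a mean of 5 TPM or more, 3 scalings, the mouse as a block, the block with median-ratio scaling, the Kruskal-Wallis test and leaving out each muscle.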

Additional observations from a re-analysis of the deposited data

Results flagged for a closer look

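*Hk2* in NT replicate 4 stood apart from its group at 143.64 TPM, where the other NT muscles lay between 95.2 and 100.7 TPM. The gap made up 0.886 of the range of the 4 muscles, above Dixon's critical value for 4 samples at the 95% level. It was the 1 muscle so far from its group among 36 groups of 4 examined, of which chance gives about 1.8. The *Uba1* leg of the same mouse was also the highest of its group, at 152.1 TPM.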

How the results depend on the processing

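No adjusted p of a member passed 0.05 under the alternatives run, of which the Kruskal-Wallis test could not have passed: *Uba1*, with groups that do not overlap, reached an adjusted p of 0.18 there. Median-ratio scaling, alone or with the replicate block, turned *Gpi1* to -0.11, *Pfkm* to -0.0579 and *Aldoa* to -0.0733, and quantile normalization turned *Gpi1* to -0.0236, *Gapdh* to 0.0816 and *Pkm* to 0.0355. At an unadjusted p, 4 members were lower with median-ratio scaling (6.18% of all genes) and 4 with the replicate block and that scaling (*Gapdh*, *Ldha*, *Pgk1* and *Eno3*; 8.76%), 1 was higher with quantile normalization (*Aldoa*; 4.45%) and 1 with the replicate block (*Hk2*; 22.4%). The cause was not tested. *Uba1* passed the adjusted p of 0.05 at a mean of 5 TPM or more (-1.98), with the replicate block (-1.98), with median-ratio scaling alone or blocked (-2.09), with quantile normalization (-2.06) and without mitochondrial genes (-1.996), and also without *Uba1* replicate 2 (-1.64, adjusted p = 0.00254 from limma) or replicate 4 (-2.18, adjusted p = 0.0203). It did not pass with a pseudocount of 0.1 (adjusted p = 0.0666), with no filter (0.131) or without any 1 of the other 6 muscles (0.0875 to 0.227).

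For all genes, adjusted calls were 1 higher with no filter, 1 higher and 22 lower with median-ratio scaling, 1 and 27 with quantile normalization, 2 and 12 without mitochondrial genes, 22 and 35 with the replicate block, 7 and 69 with the block and median-ratio scaling, 11 lower at a mean of 5 TPM or more and 0 lower with the Kruskal-Wallis test, where 2013 genes were higher and 197 lower at an unadjusted p under 0.05 and limma gave 0 higher and 3 lower after adjustment. Unadjusted calls were 1113 higher and 149 lower at a mean of 5 TPM or more, 511 and 712 with median-ratio scaling, 513 and 595 with quantile normalization, 803 and 1010 with both block and median-ratio scaling, and 374 lower with no filter. For the further pathway genes they were 4 higher at a mean of 5 TPM or more, 2 higher and 5 lower with median-ratio scaling, 1 and 2 with quantile normalization, 11 higher with the block, 3 and 11 with both block and median-ratio scaling, and 1 lower without mitochondrial genes. With the block alone, unadjusted calls over all genes were 2588 higher and 323 lower.

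With each muscle left out, the log2FC ranged from 0.0756 to 0.313 for *Hk2*, -0.0412 to 0.0681 for *Gpi1*, 0.0302 to 0.0906 for *Pfkm*, 0.0045 to 0.0825 for *Aldoa*, -0.106 to 0.0146 for *Gapdh*, -0.232 to 0.0054 for *Pgk1*, -0.165 to 0.0018 for *Pgam2*, -0.166 to -0.0093 for *Eno3*, -0.137 to 0.0242 for *Pkm*, -0.19 to -0.03 for *Ldha* and -2.18 to -1.64 for *Uba1*. *Gpi1* changed sign without NT replicate 1 or *Uba1* replicates 1 or 3, *Gapdh* without *Uba1* replicate 4, and *Pgk1*, *Pgam2* and *Pkm* without *Uba1* replicate 2. Calls ranged from 0 to 4 higher and 2 to 35 lower for all genes after adjustment (the highest without *Uba1* replicate 4), from 1154 to 2024 higher and 169 to 281 lower unadjusted, from 0 to 1 higher for members (*Hk2*, without NT replicate 4), and from 4 to 7 higher and 0 to 2 lower for the further genes. Differences in isoform share, in percentage points, ranged from -0.00518 to 0.0304 for *Pfkm*, -0.0204 to 0.00793 for *Pgam2*, -0.0418 to 0.106 for *Eno3* and -3.58 to -1.48 for *Ldha*. The summed members (log2 of *Uba1* over NT) ranged from -0.08 to 0.04. Depth is unknown, so its part in these limits could not be examined.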
